A study of Mus musculus with 12 samples.

Results

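Costimulatory molecule genes are described here as 9 genes, Cd40, Cd80, Cd83, Cd86, Cd274, Pdcd1lg2, Icosl, Tnfsf4 and Ccr7, out of 18193 genes that the arrays name by a single symbol. They were taken by gene symbol, and all of their probe sets were used: 16 of the 34945 probe sets with 1 symbol. The data are 12 Affymetrix arrays of mouse RNA in 4 groups of 3: Stat5 knockout treated, Stat5 knockout untreated, control treated and control untreated. Knockout mice lacked Stat5a and Stat5b in their blood cells and control mice carried them, per the labels. The labels give neither the age of the mice, nor how the genes were removed, nor how many mice gave each sample. The letters GMP stand in most sample titles, treated and untreated alike, and the treatment field uses the same letters for the agent, while the series title names GM-CSF. The labels spell out neither use, so only the word treatment is used, and the cells are described by their markers. The titles carry 3 dates, with the 4 groups represented once on each. No label says that arrays of a group came from separate mice, so p-values measure the spread among these arrays only, and that spread may be technical.

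A T cell that meets its antigen needs further signals from the cell that shows it. CD80 and CD86 bind CD28 to start a response and CTLA-4 to restrain it, ICOSL and the OX40 ligand encoded by Tnfsf4 sustain activated T cells, and PD-L1 (Cd274) and PD-L2 (Pdcd1lg2) dampen them through PD-1. CD40 is the receptor through which T cells activate the presenting cell in turn, CD83 is a surface marker of mature dendritic cells, and CCR7 leads such cells to lymph nodes. GM-CSF is widely used to grow dendritic cells from bone marrow.

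Both deleted genes gave low signals wherever the label says knockout. Stat5a had 36 ± 8.84 in knockout treated, 60.6 ± 35.5 in knockout untreated, 654 ± 254 in control treated and 962 ± 165 in control untreated cells (intensity, SD, n = 3 arrays each). Which part of the gene was deleted is not given in the labels. All 12 markers of granulocyte-monocyte progenitors on the list were above the filter on dim signals, and Mpo, the myeloperoxidase gene, lay between 15309 and 111812 on every array. Of the markers on the arrays, all 9 of neutrophils and 7 of 8 of monocytes and macrophages passed as well. Ngp of the former lay between 3077 and 17500, and Csf1r of the latter between 6440 and 40377. Passing the filter therefore does not set progenitors apart from these cells. The arrays of date 2 stood apart. Array controls for Actb compare its 3' and 5' ends, and a large 3' to 5' ratio goes with short RNA or short labelled copies. This ratio was 20.8 in knockout treated, 28.7 in knockout untreated, 266 in control treated and 59.5 in control untreated cells on date 2, against 1.14 to 2.05 on the other dates. The title of the knockout treated array of date 2 also carries another number than those of the other 3 arrays of that date. The part of RNA quality in the results was not tested. Values without date 2 are given beside some of the treatment results and genotype differences, not always those that it moved most. In RNA from a mixture, fewer cells of a type and less RNA per cell cannot be told apart.

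Testing required an intensity above 70.5 (the median over the whole table) on 3 or more of the 12 arrays. Of the 16 member probe sets 11 passed, and they stood for 8 of the 9 genes. Of the 11 tested sets 7 reached the required 3 arrays only with treated arrays. Both Cd86 sets, 1 of the Cd40 sets and 1 of the Cd80 sets were above that level on 4 to 6, 5 and 3 of 6 treated arrays, and on 0 of 6 untreated arrays. The Cd83 set was above it on 6 treated and 1 untreated, the other tested Cd40 set on 5 and 1, and the Pdcd1lg2 set on 4 and 2. The passing of these 7 sets rested on their treated values, so the counts of members below describe these sets and support nothing further. Differences are on the log2 scale of intensity plus 13, with a standard error from a limma fit in which date was a block, and the Benjamini-Hochberg adjustment of p-values ran over 21363 probe sets. The constant of 13 shrinks the difference of any gene whose signal was near it.

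**Figure D1:**
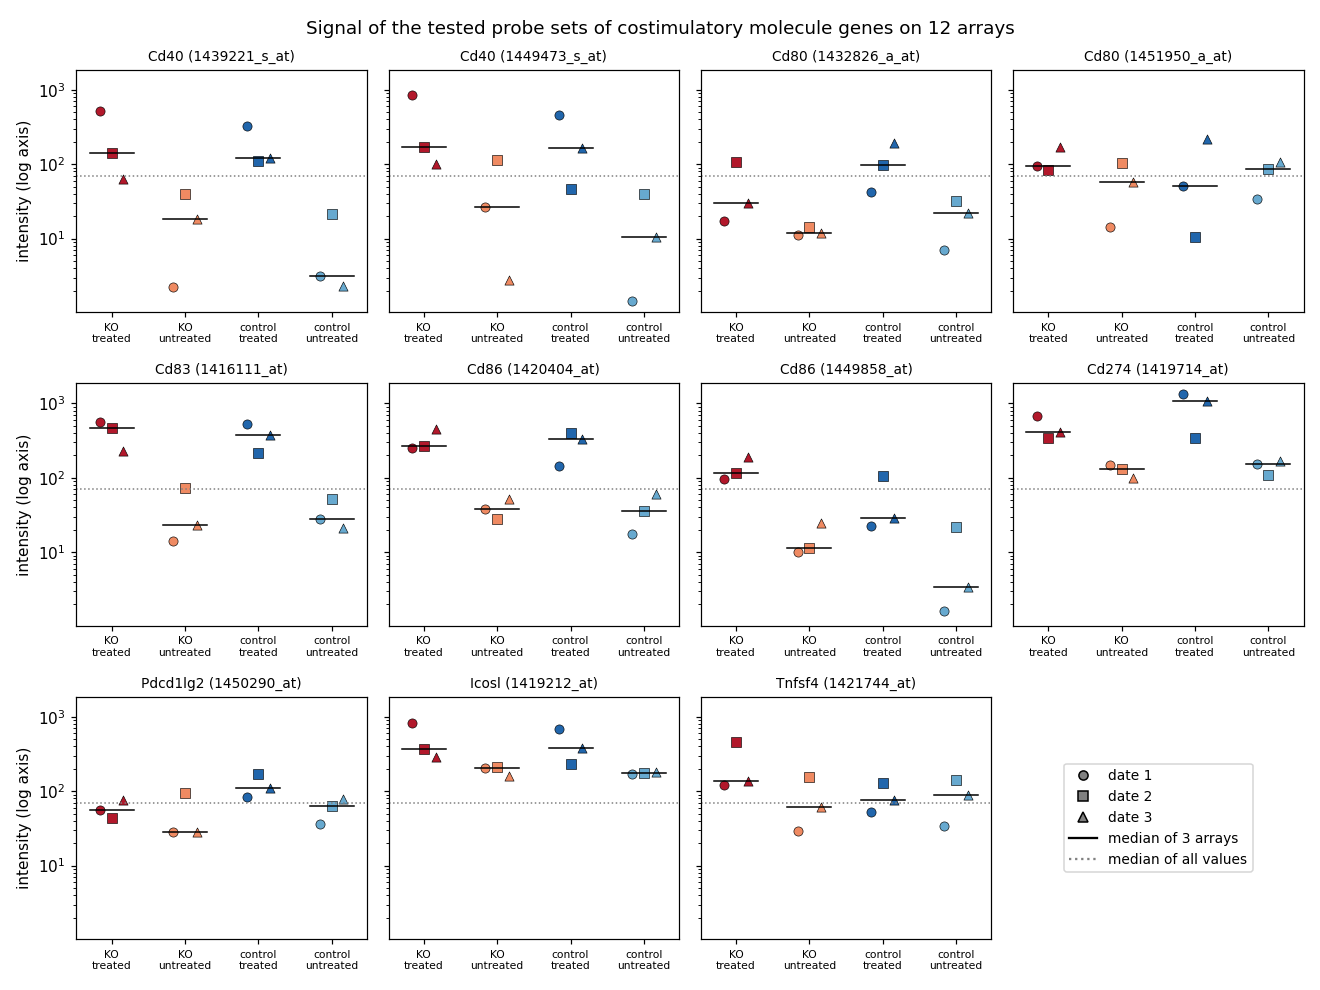
Intensity (log axis) of the 11 tested member probe sets on each of the 12 arrays, in knockout treated, knockout untreated, control treated and control untreated cells. Symbols give the date of the array, bars the median of 3 arrays, and the dotted line the median of all values, 70.5. Cd83, Cd86 and Cd274 lie higher on every treated array than on any untreated array of the same genotype, while Pdcd1lg2 stays near the dotted line.

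Treatment was followed by higher signals of Cd83, Cd274, the brighter Cd86 set and the dimmer tested Cd40 set in cells of either genotype. Tnfsf4 and the dimmer Cd86 set rose in knockout cells, and the dimmer tested Cd80 set rose in control cells. In knockout cells 6 of 11 tested member probe sets rose and 0 fell, where 5.77% of all tested probe sets rose and 2.89% fell. In control cells 5 of 11 rose and 0 fell, where 3.16% of all tested probe sets rose and 1.54% fell. Without date 2 the members that rose were 8 of 11 in knockout and 7 of 11 in control cells. All 3 treated arrays lay above all 3 untreated arrays for 7 of 11 member sets in knockout cells (11.0% of all tested sets) and for 9 of 11 in control cells (8.36% of all tested sets).

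Cd86 encodes the CD28 ligand that presenting cells bring up early. Its brighter probe set, 1420404_at, had signals of 254, 269 and 459 on dates 1, 2 and 3 in knockout treated cells, against 38.1, 27.5 and 52.2 in knockout untreated cells. In control treated cells it had 145, 403 and 332, against 17.7, 35.7 and 60.1 in control untreated cells. The groups did not overlap in either genotype, and every untreated array lay under the median of all values. The set rose by 2.68 ± 0.32 in knockout cells (SE, limma adjusted p = 0.00138) and by 2.57 ± 0.32 in control cells (limma adjusted p = 0.00241). These are 6.41-fold and 5.92-fold changes on the scale of intensity plus 13, and Cd86 on this set was past the threshold in each of the 12 fits without 1 array in both genotypes. The date-by-date differences were close to each other, 2.39, 2.80 and 2.86 in knockout cells and 2.36, 3.10 and 2.24 in control cells.

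The dimmer Cd86 set, 1449858_at, gave another picture of genotype. It had 95.2, 116 and 188 in knockout treated cells, against 9.90, 11.3 and 24.7 in knockout untreated cells. It had 22.7, 107 and 28.9 in control treated cells, against 1.60, 21.7 and 3.39 in control untreated cells. The treated arrays were above the untreated ones in both genotypes, and control treated cells reached the level of knockout treated cells on date 2 only. The set rose by 2.36 ± 0.41 in knockout cells (limma adjusted p = 0.0090), and differed by 1.48 ± 0.41 in control cells (limma adjusted p = 0.0713), a value that passed without date 2 (1.32, limma adjusted p = 0.0301). Which part of the transcript each Cd86 set covers is not known here.

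Cd83 had one probe set, 1416111_at. It had 562, 467 and 230.3 in knockout treated cells, against 13.9, 73.2 and 23.3 in knockout untreated cells. In control treated cells it had 521, 213 and 374, against 27.6, 51.5 and 21.1 in control untreated cells. Treated and untreated arrays were well apart in both genotypes, with the smallest gap on date 2. Cd83 rose by 3.21 ± 0.48 in knockout cells (limma adjusted p = 0.00426) and by 3.01 ± 0.48 in control cells (limma adjusted p = 0.00823). Without control treated replicate 3 the adjusted p for Cd83 in control cells was 0.0506. Without date 2 the differences were larger, 3.58 in knockout and 3.61 in control cells.

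Cd40 had 3 probe sets, dim on most untreated arrays. The tested set 1439221_s_at had 514, 140 and 64.0 in knockout treated cells, against 2.22, 40.0 and 18.4 in knockout untreated cells. In control treated cells it had 324, 110.3 and 122, against 3.13, 21.5 and 2.33 in control untreated cells. The groups did not overlap, and the array of date 1 was the highest treated one in both genotypes. The set rose by 2.65 ± 0.67 in knockout cells (limma adjusted p = 0.0375) and by 3.12 ± 0.67 in control cells (limma adjusted p = 0.0290). These calls were lost in 8 of 12 fits without 1 array in knockout cells and in 5 of 12 in control cells (limma adjusted p of at most 0.127 and 0.120), without the date block (0.0998 and 0.0745), with no filter on dim sets (0.0664 and 0.0515) and with only the groups of the comparison fitted (0.103 and 0.0621). In knockout cells the Cd40 call was also lost with a constant of 1 (limma adjusted p = 0.0707).

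The brighter Cd40 set, 1449473_s_at, had the same order of groups and a wider spread. It had 849, 168 and 99.4 in knockout treated cells, against 26.5, 114 and 2.82 in knockout untreated cells, and 464, 47.1 and 166 in control treated cells, against 1.45, 40.1 and 10.6 in control untreated cells. Knockout treated and untreated arrays overlapped, and control ones did not. Its differences, 2.60 ± 0.92 in knockout and 2.72 ± 0.92 in control cells, did not pass (limma adjusted p = 0.112 and 0.123). On date 2 they were 0.51 and 0.18, and without date 2 they were 3.64 and 3.98 and passed (limma adjusted p = 0.0279 and 0.0237). The remaining set, 1460415_a_at, was above 70.5 on 2 arrays, with 367 in knockout treated and 198 in control treated cells of date 1, and was not tested. Suffixes of both tested Cd40 sets mark probes that may bind more than 1 transcript.

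**Figure D2:**
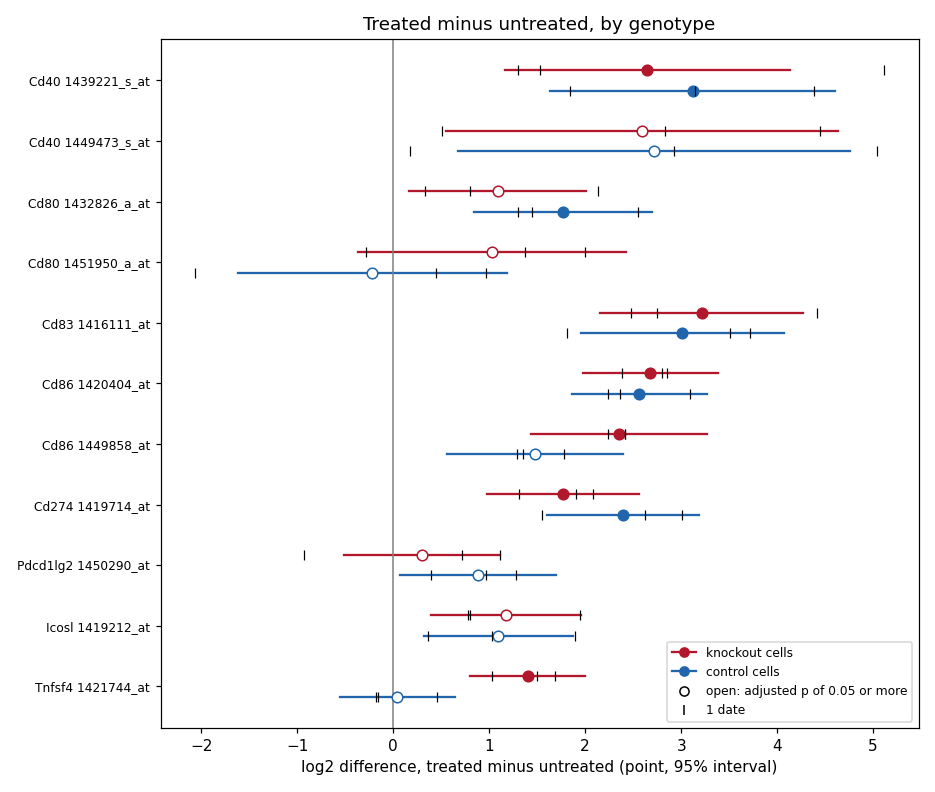
Treated minus untreated signal (log2 of intensity plus 13) of the 11 tested member probe sets in knockout cells (red, upper) and control cells (blue, lower). Points are limma estimates with 95% confidence intervals, filled where the adjusted p was under 0.05, and ticks are the differences on each date; for Cd83 and the brighter Cd86 set both genotypes are filled and their intervals overlap, and for Tnfsf4 only knockout cells are filled, at 1.40 against 0.04.

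Cd274 and Pdcd1lg2 encode the PD-1 ligands and lie next to each other on mouse chromosome 19. The table of sequences held windows of 300 bases around a start site (250 before and 50 after it) for both, whose start sites lie 43481 bases apart on the plus strand, and for Cd80 and Icosl. They are shown because these neighbours differed in their calls. Capitals mark matches to the general form of NF-kB sites (GGG, any 5 bases, CC), of STAT sites (TTC, any 3 bases, GAA), of AP-1 sites (TGANTCA) or of interferon response elements (GAAA, any 2 bases, GAAA), on either strand (RefSeq, GRCm38.p6).
Cd274, chr19:29367188-29367487, plus strand: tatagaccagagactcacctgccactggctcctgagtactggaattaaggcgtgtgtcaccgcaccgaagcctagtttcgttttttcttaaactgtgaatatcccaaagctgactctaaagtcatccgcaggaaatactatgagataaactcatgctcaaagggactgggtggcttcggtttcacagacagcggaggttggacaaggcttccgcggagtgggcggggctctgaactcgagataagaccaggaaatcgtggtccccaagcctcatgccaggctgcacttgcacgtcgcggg
Pdcd1lg2, chr19:29410669-29410968, plus strand: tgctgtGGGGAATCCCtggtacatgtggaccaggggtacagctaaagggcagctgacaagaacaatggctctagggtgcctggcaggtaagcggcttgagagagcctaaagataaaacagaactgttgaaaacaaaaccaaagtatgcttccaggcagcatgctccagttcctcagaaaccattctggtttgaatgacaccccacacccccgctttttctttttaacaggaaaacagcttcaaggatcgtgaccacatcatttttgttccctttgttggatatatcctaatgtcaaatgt
The Cd274 window held 0 matches and the Pdcd1lg2 window 1, GGGGAATCCC, which begins 244 bases before the start site. Over all 32851 such windows in the table, 50.8% held the NF-kB form, 8.3% the STAT form, 7.81% the AP-1 form and 3.44% the interferon form. The Cd80 window held 2 NF-kB matches and 1 AP-1 match and the Icosl window 2 NF-kB matches. A match describes letters, and its absence says only that these letters are not in this window.

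Cd274 was above the median of all values on every array, so its test did not depend on the filter. It had 672, 342 and 409.7 in knockout treated cells, against 149, 130.1 and 99.9 in knockout untreated cells. In control treated cells it had 1327, 345 and 1087, against 154, 109.5 and 165 in control untreated cells. All treated arrays were above all untreated ones, and on dates 1 and 3 the control treated arrays were higher than the knockout treated ones. Cd274 rose by 1.77 ± 0.36 in knockout cells (limma adjusted p = 0.0158) and by 2.39 ± 0.36 in control cells (limma adjusted p = 0.00628), a 3.40-fold and a 5.25-fold change. The call in knockout cells was lost without replicate 1 or 2 of knockout treated or 1 or 3 of knockout untreated cells (limma adjusted p of at most 0.0839) and without the date block (0.102).

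Pdcd1lg2, which in mice is found mainly on dendritic cells and macrophages, did not pass in either genotype. Its set 1450290_at had 55.3, 44.1 and 75.8 in knockout treated cells, against 28.4, 95.9 and 28.2 in knockout untreated cells. It had 83.6, 172 and 109 in control treated cells, against 36.4, 63.3 and 79.6 in control untreated cells. Control treated arrays were all above control untreated ones, and knockout arrays of either treatment overlapped, with the only fall on date 2. The differences were 0.30 ± 0.36 in knockout cells (limma adjusted p = 0.668) and 0.88 ± 0.36 in control cells (limma adjusted p = 0.202). In knockout cells the 95% interval of -0.51 to 1.11 spans 0. Without date 2 the difference of Pdcd1lg2 in knockout cells was 0.92 (limma adjusted p = 0.0731).

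Tnfsf4, the OX40 ligand gene, rose in knockout cells and did not pass in control cells. Its set 1421744_at had 122, 462 and 137 in knockout treated cells, against 28.9, 156 and 61.0 in knockout untreated cells. It had 51.8, 128 and 76.5 in control treated cells, against 34.3, 144 and 88.0 in control untreated cells. Date 2 gave the highest value in each group, so knockout treated and untreated arrays overlapped across dates while each date showed a higher treated value, by 1.68, 1.49 and 1.03. Tnfsf4 rose by 1.40 ± 0.27 in knockout cells (limma adjusted p = 0.0132) and differed by 0.04 ± 0.27 in control cells (limma adjusted p = 0.951). The call in knockout cells was lost without the date block (limma adjusted p = 0.403) and without replicate 1 or 3 of knockout untreated or replicate 2 of knockout treated cells (at most 0.0610).

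Icosl, which encodes the ligand of ICOS, had higher treated values in both genotypes and did not pass. Its set 1419212_at had 817, 372 and 287 in knockout treated cells, against 202, 212 and 159 in knockout untreated cells. It had 677, 232 and 378 in control treated cells, against 173, 177 and 179 in control untreated cells. All treated arrays were above all untreated ones in both genotypes, and the untreated values were close together. The differences were 1.17 ± 0.35 in knockout cells (limma adjusted p = 0.0656) and 1.10 ± 0.35 in control cells (limma adjusted p = 0.105). The other Icosl set, 1426087_at, reached 99.4 at most, lay above 70.5 on 2 arrays and was not tested.

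Cd80, the other CD28 and CTLA-4 ligand, gave different values on its 2 tested probe sets, and 2 further sets, between 3.97 and 94.2, were too dim to test. Set 1432826_a_at had 17.3, 106 and 30.2 in knockout treated cells, against 11.1, 14.3 and 11.8 in knockout untreated cells, and 41.7, 97.5 and 191 in control treated cells, against 7.02, 31.8 and 21.9 in control untreated cells. Treated arrays were above untreated ones in both genotypes, by little on date 1 in knockout cells. It rose by 1.77 ± 0.42 in control cells (limma adjusted p = 0.0419) and differed by 1.09 ± 0.42 in knockout cells (limma adjusted p = 0.138), or by 0.57 without date 2. The Cd80 call in control cells was lost in 8 of 12 fits without 1 array (limma adjusted p of at most 0.148) and in 6 of 9 other alternatives. These were no date block (0.257), no filter on dim sets (0.0764), only the groups of the comparison (0.0727), quantile normalization (0.0555), a trended prior (0.0549) and a constant of 50 (0.0538, all limma adjusted p).

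The brighter Cd80 set, 1451950_a_at, had 95.4, 83.1 and 172 in knockout treated cells, against 14.1, 104 and 58.4 in knockout untreated cells. It had 51.4, 10.6 and 220.3 in control treated cells, against 34.1, 85.5 and 107 in control untreated cells. Treated and untreated arrays overlapped in both genotypes. The differences were 1.03 ± 0.63 (limma adjusted p = 0.346) in knockout and -0.22 ± 0.63 (limma adjusted p = 0.886) in control cells. In control cells the date 2 difference was -2.06, and without date 2 the value was 0.71 (limma adjusted p = 0.178). In knockout cells it was 1.69 without date 2 and passed (limma adjusted p = 0.0174).

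Ccr7, the homing receptor of mature dendritic cells, stayed under the median of all values on all 12 arrays and was not tested. It had 56.8, 2.41 and 3.71 in knockout treated cells, 2.04, 4.77 and 2.24 in knockout untreated cells, 22.6, 11.1 and 3.94 in control treated cells and 1.75, 9.94 and 3.32 in control untreated cells. The highest value of each genotype was the treated array of date 1.

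The response to treatment did not differ between genotypes for any member by the test of the difference, which called 0 of 11 member sets and 0 of all 21363 (0%, limma; 549 sets, or 2.57%, had an unadjusted p under 0.05, 1 of them a member). That member was Tnfsf4, with a difference of responses of 1.36 ± 0.38 (knockout minus control, 95% interval 0.51 to 2.21, unadjusted p = 0.00511 and adjusted p = 1 in limma), positive on all 3 dates at 1.23, 1.65 and 1.20. For Cd86 on its brighter set the difference was 0.11, with an interval of -0.88 to 1.11, and for Cd83 it was 0.20, with an interval of -1.29 to 1.69. For Cd274 it was -0.63 (-1.75 to 0.49), negative on all 3 dates. For Pdcd1lg2 it was -0.58 (-1.73 to 0.56), and 0.23 without date 2. These intervals leave room for differences of more than 1 on the log2 scale, so a missed threshold does not show that the genotypes respond alike.

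Treated knockout and treated control cells were then set against each other, a comparison that shares its arrays with those above. Of 11 member sets 0 passed, where 0.0609% of all tested probe sets did (13, all lower in knockout cells). At an unadjusted p under 0.05 there were 4 member sets, where 8.46% of all tested sets were. The smallest was that of Tnfsf4, higher in knockout treated than in control treated cells by 1.19 ± 0.27 (unadjusted p = 0.00131, adjusted p = 0.338 in limma) and on all 3 dates, by 1.05, 1.75 and 0.75. The Tnfsf4 difference was 0.90 without date 2. The dimmer Cd86 set was higher by 1.32 ± 0.41 (limma adjusted p = 0.584), or by 1.93 without date 2, whereas the brighter Cd86 set differed by 0.22 ± 0.32 (limma adjusted p = 0.825).

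A Cd80 set and the PD-1 ligands had lower mean signals in knockout treated than in control treated cells, and none passed. The dimmer tested Cd80 set differed by -0.99 ± 0.42 (unadjusted p = 0.0377, limma adjusted p = 0.584), or by -1.55 without date 2, and was higher in knockout cells on date 2 alone. The brighter Cd80 set went the other way, by 0.82 ± 0.63 (limma adjusted p = 0.668), with 0.75, 2.03 and -0.33 on the 3 dates. Pdcd1lg2 differed by -0.89 ± 0.36 (unadjusted p = 0.0352, limma adjusted p = 0.584), or by -0.48 without date 2. Its knockout treated arrays, 44.1 to 75.8, were all below its control treated arrays, 83.6 to 172. It was the only member set of 11 with no overlap between genotypes after treatment, where 3.69% of all tested sets lay wholly lower and 2.16% wholly higher in knockout cells. Cd274 differed by -0.79 ± 0.36 (unadjusted p = 0.0509, limma adjusted p = 0.584), with -0.97, -0.01 and -1.38 on the 3 dates. On date 2 both genotypes had nearly the same Cd274 signal, and without date 2 the difference was -1.17 (limma adjusted p = 0.432). For Pdcd1lg2 and Tnfsf4, in contrast, date 2 gave the largest difference of the 3 dates, -1.70 and 1.75. The part of RNA quality in these differences was not tested.

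Without treatment 0 of 11 member sets passed between genotypes, where 0.00936% of all tested sets did. The differences of the members lay between -0.43 for the brighter Cd80 set and 0.71 for the brighter Cd40 set, and 0 had an unadjusted p under 0.05 (2.43% of all tested sets had). Groups overlapped for all 11 sets, where 1.27% of all tested sets lay wholly higher and 2.50% wholly lower in knockout cells. For Icosl, the most even of them, the untreated values were 159 to 212 in knockout and 173 to 179 in control cells.

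**Figure D3:**
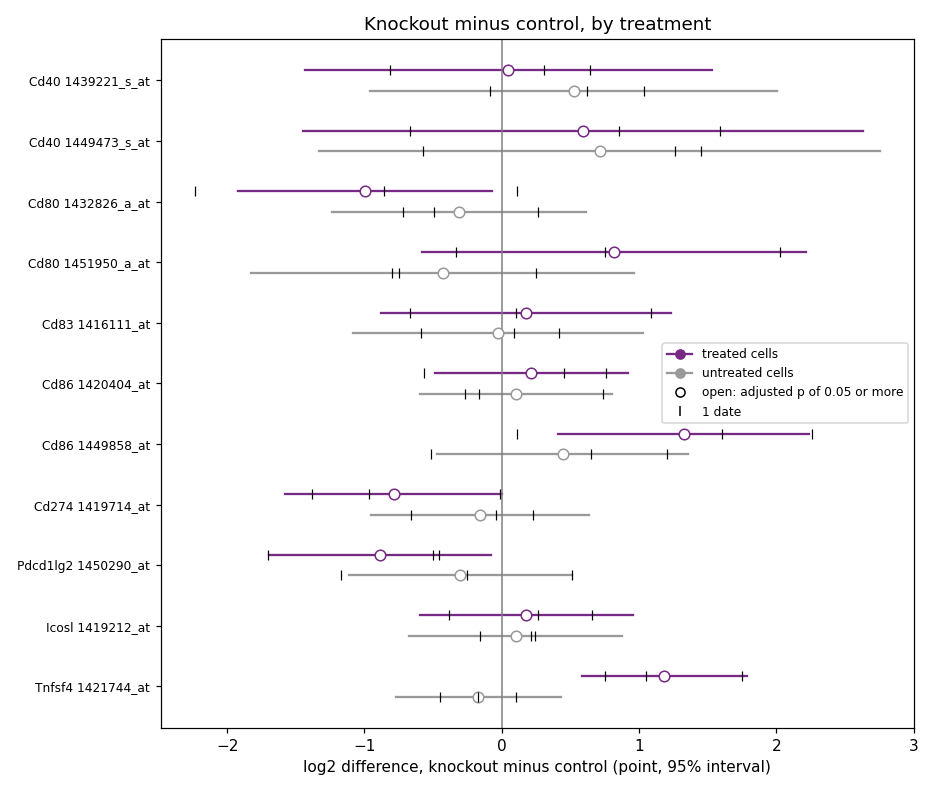
Knockout minus control signal (log2 of intensity plus 13) of the 11 tested member probe sets in treated cells (purple, upper) and untreated cells (grey, lower). Points are limma estimates with 95% confidence intervals, all open because no adjusted p was under 0.05, and ticks are the differences on each date; Tnfsf4 and the dimmer Cd86 set lie to the right of 0 in treated cells, and the Cd80 set 1432826_a_at, Pdcd1lg2 and Cd274 to the left.

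The order of the 4 groups was not the same for all genes. By group mean, Cd83, the brighter Cd86 set and both tested Cd40 sets were highest in knockout treated cells, next in control treated, then in knockout untreated and lowest in control untreated cells. For Cd83 and Cd86 neighbours in that order differed beyond their spread only between the treated and the untreated groups. For Cd274 the means were 475 ± 175 in knockout treated, 126 ± 24.8 in knockout untreated, 920 ± 512 in control treated and 143 ± 29.4 in control untreated cells (SD, n = 3 each). The untreated Cd274 groups did not differ beyond their spread. For Tnfsf4 knockout treated cells had 240.2 ± 192, against 81.8 ± 65.8 in knockout untreated, 85.4 ± 38.8 in control treated and 88.6 ± 54.7 in control untreated cells. The last 3 groups did not differ beyond their spread, and the knockout treated arrays overlapped each of them across dates. On each date the knockout treated array was the highest.

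The members resembled each other to unequal degrees over the 12 arrays once the mean of each date was taken off. The correlation of log2 signals was 0.97 between Cd40 and Icosl, 0.96 between Cd83 and Icosl, 0.95 between Cd83 and Cd274 and 0.88 between Cd83 and Cd86. It was -0.07 between Pdcd1lg2 and Tnfsf4. Among all 11815 genes, those most like Cd83 were Trib3, Tars and Maf (0.99 each), those most like Cd86 were Dusp3 (0.99), Lpl and Cstb (0.98 each), and those most like Cd274 were Susd6, Irf4 and Prdm1 (0.98 each). For Tnfsf4 they were Kif5b (0.94), Themis2 (0.93) and Nr3c1 (0.92), for Icosl Bbc3, Slc15a3 and Ddit4 (0.98 each), and for Cd40 Bbc3, Icosl (0.97 each) and Lta (0.96). The values for Pdcd1lg2 (Lce3b, 0.96) and Cd80 (Ppp1r14c, 0.94) rest on dim signals. These are descriptions over arrays that share the groups.

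Other genes of the pathway were read from lists, with each gene counted by its standing probe set, that with the highest mean signal. By this count 4 of 8 measured costimulatory genes rose in knockout cells and 3 of 8 in control cells, where 5.79% and 3.33% of the 11815 genes rose and 3.44% and 1.81% fell. The median change of the 8 genes was 1.58 in knockout and 1.75 in control cells, beside -0.03 and -0.05 over all genes. The filter bears on the other lists as well. Among others, Relb, Ltb, Havcr2, Irf4, Tnfrsf9 and Ccl17 did not reach 70.5 on any untreated array. Their passing rested on treated arrays, so the counts and medians of the lists describe these genes and support nothing further.

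The receptor side of costimulation is known mainly from T cells. Of 12 listed receptors and their ligand 11 were on the arrays with a symbol of their own and 7 were measured. Cd28 rose by 2.47 ± 0.49 in knockout cells (limma adjusted p = 0.0142), at 901 ± 876 in knockout treated and 105 ± 30.7 in knockout untreated cells, and differed by 0.58 ± 0.49 in control cells (limma adjusted p = 0.547). Tnfrsf9, a receptor of the TNF family on activated cells, rose by 3.00 ± 0.59 in control cells (limma adjusted p = 0.0204) and differed by 1.5 ± 0.59 in knockout cells (limma adjusted p = 0.149). Btla, an inhibitory receptor, fell by 2.33 ± 0.44 in knockout cells (limma adjusted p = 0.0116) and fell by 2.03 ± 0.44 in control cells (limma adjusted p = 0.0294). Tnfrsf4, the OX40 receptor gene, differed by 0.60 ± 0.29 and 0.31 ± 0.29. Ctla4 reached 46.8 at most and Pdcd1 127 on any array, and neither was tested. Of 11 T and NK lineage markers 2 were measured. Gzmb, a cytotoxic granule protease gene, rose by 1.98 ± 0.41 in knockout cells (limma adjusted p = 0.0183). In control cells Gzmb averaged 355.2 ± 284.5 treated and 169.9 ± 142.3 untreated and was not called. Cd8a averaged 83.9 ± 35.3 in knockout treated, 103 ± 14.6 in knockout untreated, 82.2 ± 56.3 in control treated and 150.4 ± 28.7 in control untreated cells. Of the T cell markers not tested, Cd3e reached 136 on its highest array, Cd3g 52.0, Cd2 51.7, Cd8b1 32.4, Cd4 19.7 and Cd3d 16.6.

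Among TNF superfamily ligands 7 of 15 were measured, with a median of 2.50 in knockout and 1.63 in control cells. In knockout cells 3 rose and in control cells 2. Tnfsf9, the ligand of the Tnfrsf9 receptor, rose by 3.60 ± 0.36 in knockout cells (limma adjusted p = 7.11e-04), to 1098 ± 402 in knockout treated cells, against 82.0 ± 41.7 in knockout untreated cells. In control cells Tnfsf9 rose by 1.63 ± 0.36 (limma adjusted p = 0.0340), to 269 ± 181 in control treated cells, against 68.5 ± 12.8 in control untreated cells. Tnf rose by 4.44 ± 0.59 and 3.46 ± 0.59 in the same order of genotypes. Ltb, a lymphotoxin subunit gene, rose by 3.72 ± 0.69 in knockout cells (limma adjusted p = 0.0113) and differed by 2.48 ± 0.69 in control cells (limma adjusted p = 0.0701).

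Of 17 other B7 and nectin family ligands and adhesion partners 8 were measured, with medians of 0.10 in knockout and 0.04 in control cells. Icam1, the adhesion ligand of T cell LFA-1, rose by 3.48 ± 0.58 in knockout cells (limma adjusted p = 0.00719) and differed by 2.35 ± 0.58 in control cells (limma adjusted p = 0.05003). Havcr2, also on this list, encodes TIM-3, a receptor rather than a ligand. It rose by 1.99 ± 0.36 in knockout cells (limma adjusted p = 0.0101). In control cells Havcr2 differed by 1.43 ± 0.36 (limma adjusted p = 0.0509). Cd48, a ligand of the CD2 family, fell by 1.14 ± 0.27 in control cells (limma adjusted p = 0.0407). In knockout cells Cd48 averaged 2167 ± 675.8 treated and 3496 ± 743.5 untreated and was not called. The inhibitory ligand gene Vsir differed by -0.24 ± 0.41 and -0.37 ± 0.41 in knockout and control cells.

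CD40 signals through TRAF adaptors to NF-kB, and all 17 of these genes that the arrays name singly, of 20 listed, were measured. In knockout cells 7 rose and 0 fell (median 1.0), and in control cells 3 rose and 0 fell (median 0.78). Relb, the subunit of the pathway downstream of CD40, rose by 5.78 ± 0.75 in knockout cells (limma adjusted p = 0.00235) and by 4.88 ± 0.75 in control cells (limma adjusted p = 0.00755). Birc3, a ubiquitin ligase gene of the TRAF complex, rose by 2.21 ± 0.23 and 1.40 ± 0.23, and Bcl3 by 3.19 ± 0.48 and 2.00 ± 0.48. Traf1 rose by 4.11 ± 0.56 in knockout cells (limma adjusted p = 0.00281) and differed by 2.16 ± 0.56 in control cells (limma adjusted p = 0.0567). Nfkb2, the partner of Relb, rose by 3.80 ± 0.86 in knockout cells. In control cells Nfkb2 averaged 726.8 ± 699.5 treated and 62.6 ± 75.8 untreated and was not called.

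**Figure D4:**
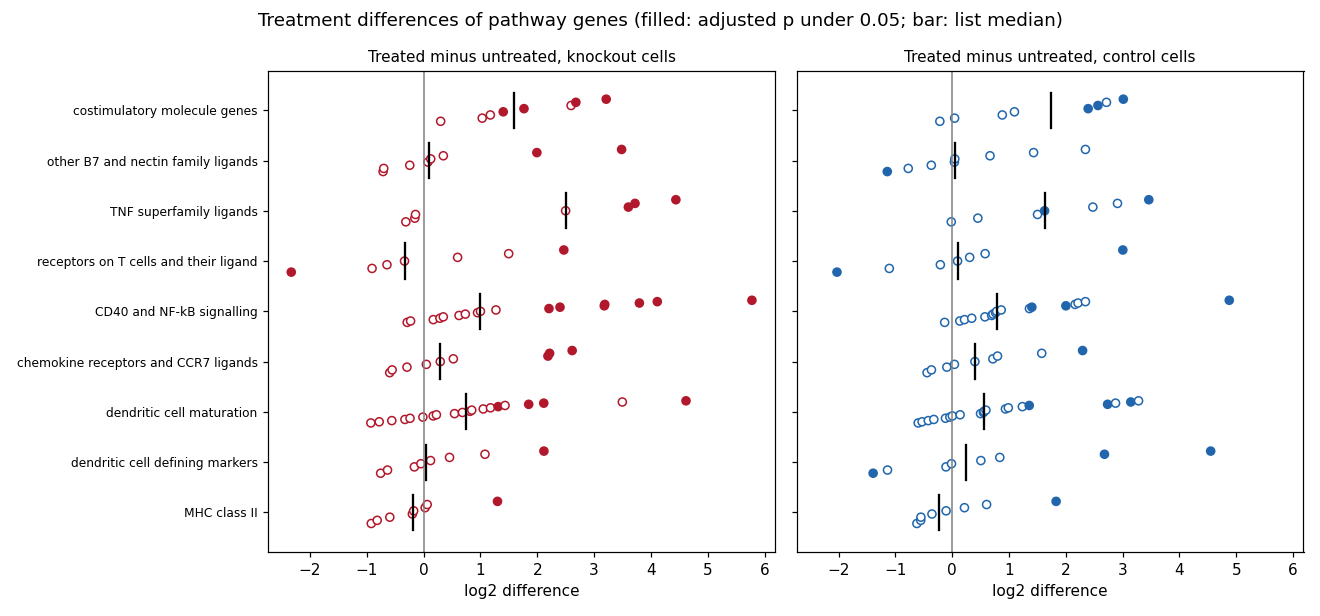
Treated minus untreated signal (log2 of intensity plus 13) of each measured gene of the pathway lists in knockout cells (left, red) and control cells (right, blue). Circles are genes, filled where the adjusted p was under 0.05, and bars are list medians; the median of the costimulatory genes is 1.58 in knockout and 1.75 in control cells, and that of MHC class II genes is -0.19 and -0.23.

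Of 25 genes of dendritic cell maturation 20 were measured, with medians of 0.75 in knockout and 0.56 in control cells. In knockout cells 4 rose, Adam8, a surface protease gene, by 4.62 ± 0.53 (limma adjusted p = 0.00128), Samsn1 by 2.11 ± 0.34, Marcksl1 by 1.85 ± 0.31 and Etv3 by 1.31 ± 0.25. In control cells 3 rose, Adam8 by 3.14 ± 0.53, Etv3 by 1.36 ± 0.25 and the chemokine gene Ccl17 by 2.74 ± 0.66 (limma adjusted p = 0.0448). Samsn1 averaged 1691 ± 904 in control treated and 668 ± 206 in control untreated cells and was not called. Neither was Marcksl1, at 6083 ± 3338 and 3056 ± 1760. Ccl17 in knockout cells was 36.8 ± 6.94 treated and 15.6 ± 8.96 untreated, a difference of 0.85 ± 0.66 (limma adjusted p = 0.470). Fscn1, the actin bundler of mature dendritic cells, differed by -0.01 ± 0.57 in knockout and 0.50 ± 0.57 in control cells. On the list of chemokine receptors and CCR7 ligands 9 of 15 were measured, of which 3 rose in knockout and 1 in control cells. Ccr1 rose by 2.61 ± 0.56 in knockout and 2.30 ± 0.56 in control cells. Ccrl2 rose by 2.19 ± 0.55 in knockout cells. In control cells Ccrl2 averaged 443.8 ± 348.4 treated and 242.2 ± 104.2 untreated and was not called. Cx3cr1 rose by 2.22 ± 0.34 in knockout cells and differed by -0.09 ± 0.34 in control cells.

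MHC class II molecules present the antigen itself. Of 11 listed genes 8 were measured, with medians of -0.19 in knockout and -0.23 in control cells. Cd74, the invariant chain that guides class II molecules, rose by 1.30 ± 0.35 (limma adjusted p = 0.0451) in knockout and by 1.83 ± 0.35 (limma adjusted p = 0.0174) in control cells. H2-Ab1 differed by -0.92 ± 0.45 in knockout and 0.22 ± 0.45 in control cells, and the class II transactivator gene Ciita reached 83.4 at most and was not tested.

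Markers of cells that carry costimulatory molecules were read beside these values. Of 12 defining dendritic cell markers 8 were measured. Irf4 rose by 2.12 ± 0.45 in knockout and 2.68 ± 0.45 in control cells, Batf3 rose by 4.55 ± 0.64 in control cells and differed by 0.46 ± 0.64 in knockout cells, and Irf8 fell by 1.39 ± 0.32 in control cells. In knockout cells Irf8 averaged 6590 ± 3372 treated and 9869 ± 4746 untreated and was not called. The dendritic cell markers Itgax, Zbtb46, Flt3, Itgae and Dpp4 were not called, and Xcr1 and Cd209a reached 65.4 and 70.0 at most. Dpp4 averaged 228.8 ± 74 treated and 395.2 ± 111.5 untreated in knockout, and 218.8 ± 68.59 and 489.3 ± 90.45 in control cells. Itgax went the other way, with 205.5 ± 138.6 and 77.18 ± 13.96 in knockout, and 148 ± 57.62 and 73.04 ± 2.661 in control cells. The medians of this list were 0.037 in knockout and 0.246 in control cells. The summed signal of the 8 genes was 3785 to 11728 in knockout treated, 7169 to 16944 in knockout untreated, 3643 to 6643 in control treated and 7381 to 14336 in control untreated cells. Irf8 gave the largest part of this sum, so the sum does not speak for the other markers. In control cells Irf8 averaged 3321 ± 1484 treated and 8474 ± 3616 untreated. Of 10 monocyte and macrophage markers 7 were measured. Cd14 rose by 3.47 ± 0.46 in knockout and 2.63 ± 0.46 in control cells, and Lyz2 by 1.54 ± 0.34 in knockout cells. In control cells Lyz2 averaged 3822 ± 1741 treated and 3428 ± 1326 untreated and was not called. No other marker of this list was called, and its medians were 0.34 in knockout and 0.56 in control cells. Group means were lower with treatment for Ccr2 in both genotypes, Adgre1 in knockout and Cd68 in control cells, and higher for the rest. The summed signal of the 7 measured markers was 30949 to 46048 in knockout treated, 13900 to 28930 in knockout untreated, 23041 to 47976 in control treated and 12457 to 34232 in control untreated cells. Csf1r gave the largest part of this sum. It averaged 18153 ± 10877 treated and 13334 ± 7967 untreated in knockout, and 20689 ± 17053 and 13829 ± 10903 in control cells. Of 11 B lineage markers 5 were measured and 0 called, and Cd79a and Ms4a1 reached 72.9 and 75.4 at most. Of the granulocyte-monocyte progenitor (12), neutrophil (9), mast cell and basophil (5) and erythroid and megakaryocyte markers (5) measured, 0 were called for treatment. The progenitor list had medians of -0.355 in knockout and -0.171 in control cells. Group means of its genes were higher with treatment for Mpo and Fcgr2b in both genotypes, and for Kit and Ctsg in control cells. They were lower for the rest. Ms4a3 averaged 4312 ± 2718 treated and 12721 ± 2134 untreated in knockout, and 9027 ± 3366 and 15734 ± 6832 in control cells. The part of a shift in cell types in the members' changes was not tested.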

How the data were processed

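RNA of 12 samples was biotin-labelled and hybridized to Affymetrix mouse arrays, per the labels. The authors deposited 45101 probe sets as MAS5 signal, an intensity that is not log-transformed, per the submitters' processing notes and the values. No version or scaling target is given in the sources used here. After trimming 2% at either end each array averaged 500.003 to 500.004, so arrays were already scaled alike, and a broad rise of some probe sets then lowers the rest. Because MAS5 takes off a mismatch signal, low values vary widely. With arrays, precision is set by their number.

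The platform annotation gave 34945 probe sets 1 symbol (932 had several, 9160 none, and 64 were controls). RefSeq (GRCm38.p6) held the gene identifiers of 34741, with 0 symbols altered. The filter described above left 21363 sets of 11815 genes. The constant of 13 is the rounded 20th percentile of the table. One limma model (version 3.58.1, R 4.3.3) covered the 4 groups and the date block, with 6 residual and 4.21 prior degrees of freedom and a threshold of 0.05. It was tested on simulated data with known changes. The 95% interval reached a median of 0.684 (log2) to either side, and 0.967 for the difference of responses. Pairing comes from the dates in the titles: deviations from group means correlated by 0.367 to 0.750 in 18 pairs of arrays of 1 date and by -0.680 to 0.435 in 36 pairs of different dates.

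A gene was counted by its tested probe set of highest mean log2 value, with _x_at or _s_at sets only if no other was left. All member probe sets are named, with up to 4 called genes per list and comparison by size and the 3 genes most correlated with each member; other genes named were chosen after their values were seen. Members and lists were chosen with earlier results of these data known. Promoter windows came from a RefSeq table that held 4 of the 9 members. Alternatives were the block, the constant, the filter, quantile normalization, 1 probe set per gene, the groups fitted, the prior, date 2 and each array. Figures used matplotlib 3.10.9.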

Additional observations from a re-analysis of the deposited data

How the results depend on the processing

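Of 1224 recomputed log2 differences of member probe sets, 1171 stayed on their side of the threshold, 46 lost a call and 7 gained one, and 0 called values changed sign (58 values called in neither fit did). The number of member sets called for treatment in knockout cells was 6, and 3 with no replicate block, and that in control cells was 5. In control cells it was 3 with no replicate block, with no filter on dim sets, with the filter on 6 arrays or with 1 probe set per gene, and 1 with only the groups of the comparison fitted. Without 1 array at a time it was 3 to 7 in knockout and 2 to 6 in control cells. Over all probe sets, 1849 were called for treatment in knockout cells and 1004 in control cells, 343 and 172 with no replicate block, 1045 and 548 with no filter, 949 and 215 with only the groups of the comparison, and 572 to 2550 and 264 to 1219 without 1 array. The difference of responses called 0 sets, 1 with date as a random block, 2 with a constant of 50 and 0 to 1 without 1 array. Between genotypes with treatment 13 were called, 2 with no replicate block, 24 with date as a random block, 0 with a constant of 1, 28 with a constant of 50, 7 with no filter, 7 with 1 probe set per gene, 0 with only the groups of the comparison, 21 with a trended prior and 0 to 11 without 1 array. Without treatment 2 were called, 1 with no replicate block, 0 with a constant of 1, with no filter or with only the groups of the comparison, and 0 to 2 without 1 array. Member sets called between genotypes or for the difference of responses were 0 in each alternative run. The cause of these shifts was not tested, save that fewer arrays or groups leave fewer degrees of freedom. Member signals near 13 limit what can be read from untreated Cd40, Cd80, Cd83, Cd86 and Ccr7.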
